A study of Homo sapiens with 12 samples.

Results

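The 93 microRNA precursor genes described here are those that were detectable in poly-A RNA-seq libraries of human midbrain-patterned neural progenitors. They were selected on measured values: of 1625 genes named as microRNA precursors in the count files, those with a mean of 3 or more raw reads per sample over all 12 samples were kept, which is 5.72%. No read was counted on 858 of the other precursor genes in any sample, and 674 had reads below that mean. Being detected is therefore what chose these genes and is not a result.

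The samples came from H9, an established human embryonic stem cell line, which in all 4 groups carried 1 of 2 lentiviral vectors, encoding miR-10a or miR-10b together with a GFP reporter. Cells were infected at a multiplicity of infection of 50, put through neural induction for 14 days and patterned towards ventral midbrain with sonic hedgehog at 200 ng/ml and a GSK3 inhibitor. The 4 groups of 3 replicates were miR-10a with doxycycline, miR-10a control, miR-10b with doxycycline and miR-10b control. In the doxycycline groups the vector was switched on from day 11 to day 14, and the controls were the same transduced cells with no doxycycline. A control vector without a microRNA was not part of these 12 samples, so an effect of doxycycline or of GFP cannot be told apart from that of the microRNA. Neither the labels nor the methods say whether replicates were separate differentiations, so the p-values measure the spread between these samples, which may be technical.

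A microRNA gene is first transcribed as a long primary RNA that can carry a cap and a poly-A tail. The Microprocessor, made of DROSHA and DGCR8, cuts a hairpin precursor out of it, DICER1 then trims the hairpin to a short duplex, and a mature strand of about the length printed below is loaded into an Argonaute protein, where bases 2 to 8 (the seed) pair with target mRNAs. Reads on a precursor gene in a poly-A library of 50-base reads can therefore come from several sources. Among them are primary transcripts, the transcript of a gene in which the hairpin lies, and, for MIR10A and MIR10B here, the vector. Some members, among them MIR6723 and MIR4461, lie in or opposite to a copy of mitochondrial sequence, or in a repeated gene. Whether their reads came from other copies was not tested. Reads on a precursor gene do not measure the mature microRNA. The libraries were made with a kit that is not stated to keep strand, so reads from the 2 strands of a place cannot be told apart.

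The mature sequences below are shown because the first are from the 2 overexpressed genes and each later set shares a seed among the detected genes. They are from RefSeq (GRCh38.p14), 5′ to 3′, with the seed in capitals. Both arms of MIR10A and the 3′ arm of MIR10B are printed, without hsa-miR-10b-5p. The 5′ arms, which are the main products, belong to 1 family.
hsa-miR-10a-5p: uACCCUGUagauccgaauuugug
hsa-miR-10a-3p: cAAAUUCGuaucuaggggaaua
hsa-miR-10b-3p: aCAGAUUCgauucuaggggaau

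Among the other members, 3 were let-7 genes with the seed GAGGUAG, which marks the best known family of differentiation-associated microRNAs.
hsa-let-7d-5p: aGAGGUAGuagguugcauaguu
hsa-let-7f-5p: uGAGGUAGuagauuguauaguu
hsa-let-7i-5p: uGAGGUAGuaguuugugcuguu

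A second set of 3 shared the seed AUUGCAC of the miR-25/92 family, which is spread over several clusters related to miR-17-92, a cluster associated with proliferation.
hsa-miR-25-3p: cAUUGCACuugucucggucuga
hsa-miR-92b-3p: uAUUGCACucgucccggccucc
hsa-miR-363-3p: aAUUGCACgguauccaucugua

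A further pair, which lie next to each other on chromosome 22, shared the seed AGUGCAA.
hsa-miR-130b-3p: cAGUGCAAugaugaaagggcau
hsa-miR-301b-3p: cAGUGCAAugauauugucaaagc

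In all, the RefSeq table listed 121 mature sequences for 81 of the members, with 115 distinct seeds, of which 4 were shared by more than 1 member. Apart from the 3 sets above, MIR3153 and MIR6739 shared the seed GGGAAAG. A hairpin was matched for 70 members. Their lengths ran from 53 to 120 bases with a median of 84, against 80 for the 1287 precursor genes below the threshold that had a hairpin, and their median GC content was 54.8% against 52.6%.

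The 12 libraries held between 10545487 and 14165426 counted reads, and within each vector the 3 controls had higher totals than the 3 doxycycline samples. The smallest number taken as detectable, 3 reads, was worth 0.212 to 0.284 CPM (counts per 1000000 counted reads of a library). Floors and intervals cover counting error only. Reads on the 93 genes made up 0.304% to 0.61% of the total. The replicate samples differed by 1.22 to 1.89 times the sampling noise (chi-square per degree of freedom over genes), except that replicate 2 of the miR-10b doxycycline group differed from its fellow replicates by 3.09 and 3.99 times, and results that rest on it are given with and without it below. Neural progenitor genes were present in every group, for example SOX2 at 1018 to 1209 CPM, and the endoderm and mesoderm markers SOX17, T and GATA4 together reached at most 0.0828 CPM.

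The detected set was dominated by a few genes. MIR6723 held 67.2% of all reads on the 93 genes, MIR10B 16.3%, MIR4461 8.52%, MIR10A 4.27% and MIR5047 1.12%, which together is 97.4%. At the other end, 55 members had a mean below 10 reads, and the median member had 8.75 reads per sample against 95 for the 14116 genes tested. On a per-length scale, the mean level over the 12 samples was 29206 CPM per kb for MIR6723, 4447 for MIR4461, 434 for MIR5047 and 195 for MIR3064, and of the other members apart from MIR10A and MIR10B the highest was MIR4712 at 54.7. A read was found in all 12 samples for 82 of the genes. The members just inside the threshold were MIR3939 and MIR4701 with a mean of 3 reads and MIR8075, MIR659 and MIR3607 with 3.08, and those just outside were MIR4740, MIR1292 and MIR92A2 with 2.92 each.

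**Figure D1:**
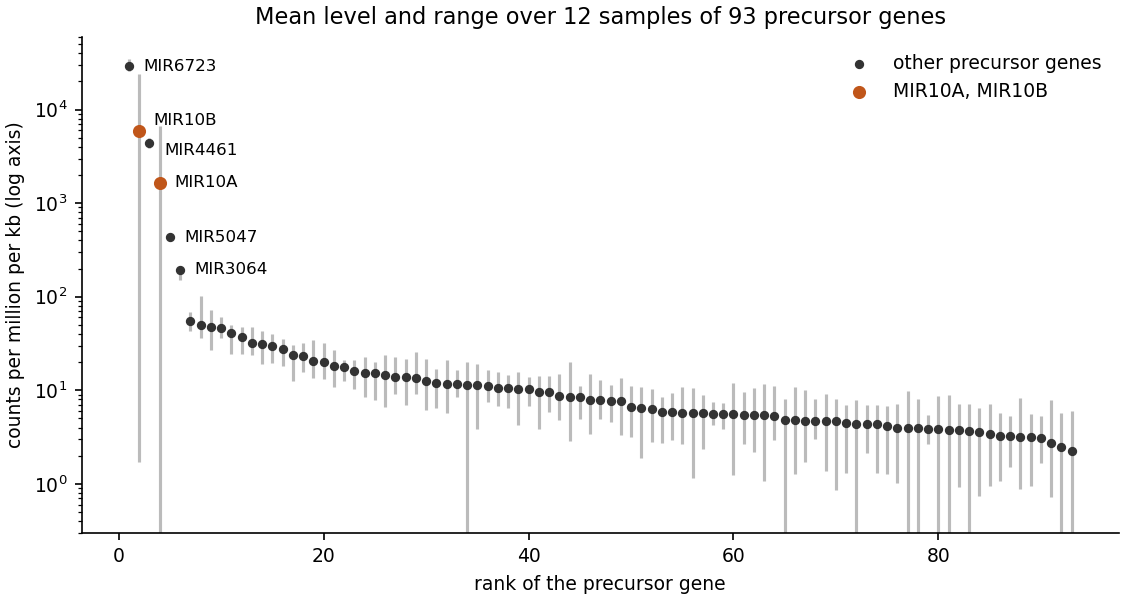
Mean level of each of the 93 precursor genes in CPM per kb (points, log axis) against its rank, with the lowest and highest of the 12 samples as a grey line that is cut at the bottom of the axis where a sample held no read. MIR10A and MIR10B (orange) span over 3 decades between samples, while MIR6723, MIR4461, MIR5047 and MIR3064 stay at nearly the same level in all samples.

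The first comparison asked whether doxycycline switched on the precursor that each vector carries. Of MIR10A and MIR10B, only the gene of that vector passed the test in each case. MIR10A lies on chromosome 17 (hg19, chr17:46657200-46657309, minus strand) in an intron of HOXB3 and in an exon of an unnamed long non-coding RNA. It had 8074, 8801 and 7502 reads in the miR-10a doxycycline samples and 17, 14 and 8 in the miR-10a controls. Every doxycycline sample was far above every control, at 723.7 ± 10.8 CPM against 0.999 ± 0.363 (SD, n = 3 each).

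The log2 fold change of MIR10A was 9.49, with a standard error (SE) of 0.23 and an adjusted p of 4.9e-46 in edgeR's quasi-likelihood test. In cells with the miR-10b vector, MIR10A had 0, 2 and 0 reads with doxycycline and 1, 0 and 1 without it. All 6 samples were below the floor of 3 reads, so no fold is given.

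MIR10B lies on chromosome 2 (hg19, chr2:177015031-177015140, plus strand) in an intron of HOXD3. It had 31637, 29615 and 31908 reads in the miR-10b doxycycline samples and 56, 39 and 44 in the miR-10b controls, or 2619 ± 67.5 against 3.55 ± 0.807 CPM (SD, n = 3 each). The groups did not overlap, and the log2 fold change was 9.53 (SE 0.13, adjusted p = 5.9e-50). In cells with the miR-10a vector, MIR10B had 7, 9 and 2 reads with doxycycline and 6, 13 and 13 without it, which overlap (log2 fold change -0.61, SE 0.42, adjusted p = 0.672). Both genes have the same length in the files, 110 bases, so their levels can be set side by side: the mean in the induced cells was 2619 CPM for MIR10B and 724 CPM for MIR10A. These levels come from 2 different vectors and were not tested against each other.

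**Figure D2:**
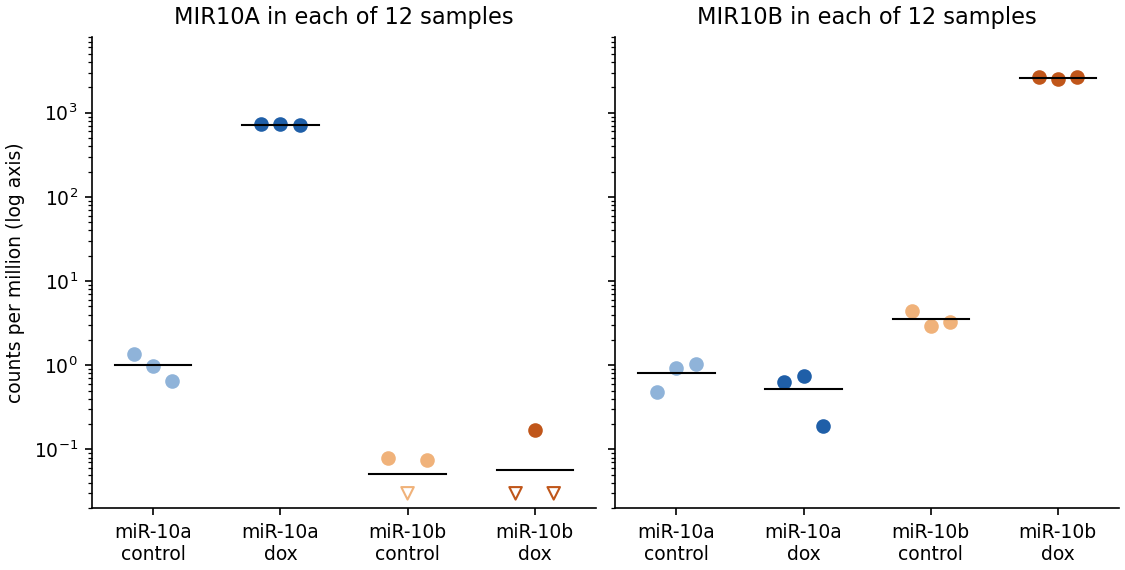
Level in CPM (log axis) of MIR10A (left) and MIR10B (right) in each of the 12 samples, with a line at each group's mean of 3 and an open triangle for a sample with no read. Each gene stands high only in the doxycycline samples of its own vector, and lies below 5 CPM in the other 9.

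The uninduced cells were not at 0 for their own precursor. Over the 3 controls of each vector, 39 reads lay on MIR10A with the miR-10a vector against 2 with the miR-10b vector, a ratio of 19.7 after scaling to total counts (exact 95% counting interval 5.09 to 168). MIR10B had 139 reads in miR-10b controls and 32 in miR-10a controls, a ratio of 4.31 (2.92 to 6.54). In the fit, uninduced miR-10b cells were lower in MIR10A (log2 fold change -4.05, SE 1.02, adjusted p = 4.5e-06, a value that depends on the small count added by the fit) and higher in MIR10B (2.09, SE 0.28, adjusted p = 2.3e-08). These controls are the ones the doxycycline groups were compared with, so the values are not independent of the induction folds. Whether the uninduced reads came from the vector or from the chromosomal gene was not tested.

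Few or no reads were counted on the genes around both precursors in the HOX clusters. HOXB3 had at most 2 reads in a sample and HOXB4 at most 3, HOXD4 at most 1, and HOXD3 and HOXB-AS3 had none. HOXB-AS3 has 8 transcripts, and reads shared by transcripts of a gene appear not to be counted, so its 0 does not show that it was silent. Without their doxycycline group, MIR10A and MIR10B would still have had a mean of 4.78 and 21 reads over the other 9 samples and so would have been kept. For MIR10A, 39 of these reads were in the miR-10a controls, with 2 over the miR-10b controls and 2 over the miR-10b doxycycline samples. MIR10A was thus kept only through cells that carried its vector. MIR10B had 32 reads over the miR-10a controls and 18 over the miR-10a doxycycline samples. The remaining 4 precursors of the HOX clusters, MIR196A1, MIR196A2, MIR196B and MIR615, had no read in any of the 12 samples. Of the wider miR-10 family, which also holds the miR-99, miR-100 and miR-125 precursors, MIR10A and MIR10B were the 2 of 8 that were detected.

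Beyond MIR10A and MIR10B, few precursors passed the test, from 0 to 3 of the other 91 genes in each comparison. With miR-10a, doxycycline changed 2 of the 93 (MIR10A and MIR4461), where 0.985% of all 14116 tested genes were called. With miR-10b it changed 3 (MIR10B, MIR1914 and MIR3687-1), where 12.2% of all genes were called. Averaged over both vectors there were 5 (MIR10A, MIR10B, MIR4461, MIR301B and MIR659), with 10.9% of all genes called. The averaged MIR10A value of 4.81 (adjusted p = 0.001) draws on miR-10b samples with 0 to 2 reads, and without replicate 2 of the miR-10b doxycycline group, the only induced one of them with a read, it was not called (adjusted p = 0.983). The difference between the 2 doxycycline effects gave MIR10A and MIR10B alone, where 1.57% of all genes were called. The 2 doxycycline comparisons use separate samples, while the average and the difference reuse them.

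Changes of the other 91 genes were centred near 0. Their median log2 fold change was -0.07 with miR-10a (43 above and 48 below 0) and 0.07 with miR-10b (51 above and 40 below), against medians of 0.01 and 0.02 over all genes tested. Precision depended on depth: the median standard error of the miR-10b log2 fold change was 0.55 for the 55 genes with a mean of 3 to 10 reads, 0.29 for the 31 with 10 to 100, and 0.06 for the 5 with 100 or more. At an unadjusted p below 0.05 there were 8 of the 91 genes with miR-10a, 7 with miR-10b, 10 in the average, 6 in the difference and 7 between uninduced cells, where 10.0%, 24.1%, 23.1%, 11.9% and 21.6% of all genes tested were. In the difference, neither the fit of all 12 samples in edgeR nor DESeq2 called any of the 91 after adjustment, while MIR3648-1 was called with no filter on counts or without replicate 2 of the miR-10b doxycycline group, and MIR6723 without replicate 3 of that group. A change had to be well above the size of its error to be called, as for MIR1914 with miR-10b (0.93, SE 0.30). For most precursors even changes larger than these errors could therefore go uncalled at this depth.

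**Figure D3:**
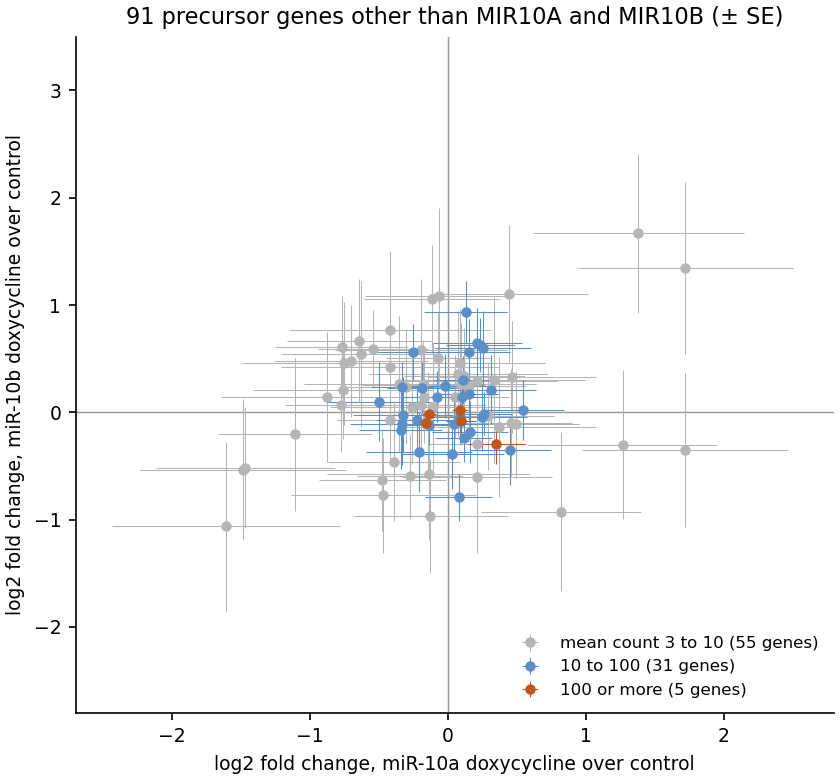
Log2 fold change of doxycycline over control with miR-10a (x axis) and with miR-10b (y axis) for 91 precursor genes, with standard errors and colours for the mean count. Genes with 3 to 10 reads (grey) scatter widely with long error bars, and the 5 genes with 100 reads or more (orange) lie near 0 on both axes.

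Apart from MIR10B, MIR4461 was the member that was called in the average over both vectors under every alternative tried. It is annotated on chromosome 5 (hg19, chr5:134263729-134263802, plus strand) in an intron of PCBD2, a cofactor-recycling protein of pterin metabolism, and opposite to MTND4LP30, a pseudogene of the mitochondrial gene for NADH dehydrogenase subunit 4L. Its level was 288, 307 and 301 CPM in miR-10a doxycycline samples and 317, 338 and 345 in their controls. It was 322, 356 and 314 CPM in miR-10b doxycycline samples and 358, 364 and 339.8 in their controls. All 3 doxycycline samples were below all 3 controls with miR-10a, whereas with miR-10b replicate 2 of the doxycycline group lay among the controls.

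The log2 fold change of MIR4461 in miR-10a cells was -0.16 (SE 0.04, adjusted p = 0.0428). It was -0.10 in miR-10b cells (SE 0.04, adjusted p = 0.112) and -0.13 averaged over both (SE 0.03, adjusted p = 0.00168). Without replicate 2 of the miR-10b doxycycline group, the miR-10b value was -0.15 with an adjusted p of 0.00189 (edgeR). The call with miR-10a was lost when any of 7 single samples was left out, with an adjusted p of up to 0.325, while the averaged call was kept without each of the 12. The level of MIR4461 per kb was 4447 CPM, against 11.6 for PCBD2, the gene in whose intron it lies. PCBD2 itself fell with miR-10b by 0.63 on the log2 scale, from 31.5 ± 3.54 to 20.4 ± 1.92 CPM (SD, n = 3 each), and had 31.5 ± 2.07 and 27.5 ± 0.957 CPM without and with doxycycline in miR-10a cells (adjusted p = 0.323).

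MIR6723, the most abundant member, is annotated in a nuclear copy of mitochondrial DNA. It had 2432, 2336 and 2456 CPM in miR-10a doxycycline samples and 2612, 2615 and 2717 in their controls. With miR-10b, it had 2602, 3054 and 2326 CPM in doxycycline samples and 2778, 2526 and 2738 in controls. The miR-10a groups did not overlap, while in miR-10b cells replicate 2 of the doxycycline group was the highest of all 12 samples and replicate 3 the lowest of all 12.

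Neither change of MIR6723 passed the threshold, at -0.14 on the log2 scale with miR-10a (SE 0.05, adjusted p = 0.235) and -0.01 with miR-10b (SE 0.05, adjusted p = 0.932). Without replicate 2 of the miR-10b doxycycline group these were -0.14 (adjusted p = 0.00262) and -0.12 (adjusted p = 0.00781), and both passed the threshold. With miR-10a, MIR6723 was also called without replicate 3 of the miR-10b doxycycline group (adjusted p = 0.0482), in a fit of only the samples compared and in a fit with no filter on counts. The MTRNR2L genes, nuclear genes that resemble the mitochondrial 16S ribosomal RNA and that were picked after their values were seen, had, over the 8 tested, a median log2 fold change of 0.15 for miR-10a induction and 0.04 for miR-10b induction. With miR-10a, 3 of these 8 were called as higher and 0 as lower, where 0.985% of all genes were called. With miR-10b 1 was higher and 0 lower, where 12.2% of all genes were called. In the average 5 were higher and 0 lower, where 10.9% were called. The list was picked on these values, so the counts are a description only. Whether they bear on the reads of MIR6723 was not tested.

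MIR3648-1 and MIR3687-1 are annotated in the transcription unit of ribosomal RNA, and their suffix marks a copy of a repeated gene, so reads could be shared with other copies. MIR3687-1 had 37, 27 and 27 reads in miR-10b doxycycline samples and 42, 51 and 82 in their controls, and between 27 and 37 in the 6 miR-10a samples. The miR-10b controls were the group that stood higher, and the log2 fold change was -0.79 (SE 0.22, adjusted p = 0.00821). MIR3648-1 had 80, 150 and 78 reads in miR-10b doxycycline samples and 102, 144 and 174 in controls, which overlap. Its log2 fold change with miR-10b was -0.30 (adjusted p = 0.342) and became -0.69 (adjusted p = 0.00407) without replicate 2 of the doxycycline group, the sample with 150 reads.

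In the comparison of uninduced cells, MIR3648-1 and MIR3687-1 were higher with the miR-10b vector than with the miR-10a vector, by 0.71 (SE 0.19, adjusted p = 0.00927) and 0.81 (SE 0.21, adjusted p = 0.00582) on the log2 scale. The miR-10a controls had 110, 83 and 61 reads of MIR3648-1 and 37, 31 and 31 of MIR3687-1. With MIR10A and MIR10B, 4 of 93 members were called here, where 11.2% of all genes were. Replicate 3 of the miR-10b controls had the highest count of both genes in that group. Without it the MIR3687-1 values were -0.48 for doxycycline (adjusted p = 0.195) and 0.49 for the uninduced comparison (adjusted p = 0.179), and MIR3648-1 was at 0.53 (adjusted p = 0.138). The uninduced calls of both genes were also lost without replicate 2 of the miR-10a controls, and that of MIR3648-1 without replicate 3 of the miR-10a controls. RNA45S5, the ribosomal precursor RNA itself, had no read counted in any sample.

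The uninduced cells of the 2 vectors also differed in cell type markers. The summed level of the neural crest and mesenchyme list (SOX10, FOXD3, COL1A1, COL3A1 and TWIST1) was 129 to 132 CPM in miR-10a controls and 323 to 340.4 CPM in miR-10b controls, with 3 of 4 tested genes higher in the miR-10b cells. Of 6 tested neural progenitor markers 3 were higher in miR-10b controls (NES by 0.17 on the log2 scale, VIM and SOX2) and 2 lower (SOX1 by 1.23 and SOX3). Of 7 ventral midbrain and floor plate markers 4 were higher, among them CORIN by 1.61 and LMX1A by 1.01, and 0 lower, and LIN28A was lower by 0.44. Over all genes tested, 11.2% were called in this comparison of uninduced cells. SOX10, which defines neural crest, had 3 to 15 reads per sample and was at -1.21 (SE 0.44, adjusted p = 0.0517), and FOXD3 was below the count minimum. The part of these differences in the precursor levels was not tested, and in bulk samples fewer cells of a type and less RNA per cell cannot be told apart.

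MIR1914 lies on chromosome 20 (hg19, chr20:62572818-62572897, minus strand) in an exon of UCKL1, a uridine kinase-like gene. It had 22, 23 and 26 reads in miR-10b doxycycline samples and 11, 12 and 18 in their controls, without overlap, and 11 to 24 in the miR-10a samples, where the groups overlapped. It rose by 0.93 on the log2 scale with miR-10b (SE 0.30, adjusted p = 0.0257) and was at 0.13 with miR-10a (adjusted p = 0.939). The difference between these 2 effects was 0.80 (SE 0.42, adjusted p = 0.46) and did not pass the threshold. The miR-10b call was lost without replicate 3 of the doxycycline group or replicate 1 or 2 of the controls, with an adjusted p of up to 0.11. MIR647, which lies 1086 bases away in an intron of the same gene, was not called in any comparison.

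MIR301B and MIR659 were called only when both vectors were averaged. Over the 6 controls they had a mean of 2 and 1.67 reads, below the minimum of 3, so both were kept only through the doxycycline samples, and their higher level there is in part what chose them. Their values are a description and support no result on doxycycline. MIR301B (hg19, chr22:22007270-22007347, plus strand) lies in an intron of an unnamed long non-coding RNA, which also has MIR130B in an exon. It had 5, 1 and 8 reads with doxycycline and 0, 4 and 2 without it in miR-10a cells. In miR-10b cells it had 6, 6 and 6 with doxycycline and 3, 2 and 1 without it, so the groups overlapped with miR-10a and not with miR-10b. The averaged log2 fold change was 1.52 (SE 0.53, adjusted p = 0.0341). MIR130B, 245 bases downstream and with the same seed, had a mean of 31.5 reads and an averaged log2 fold change of -0.05 (SE 0.16, adjusted p = 0.913). MIR659, in an intron of ANKRD54, had 5, 2 and 8 reads against 1, 1 and 3 with miR-10a and 6, 2 and 4 against 1, 1 and 3 with miR-10b, at an averaged 1.53 (SE 0.56, adjusted p = 0.0411). Both calls rest on single-digit counts: leaving out 1 sample ended the call of MIR301B in 7 of 12 cases (adjusted p up to 0.185) and that of MIR659 in 8 of 12 (up to 0.154), and neither was called by DESeq2.

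**Figure D4:**
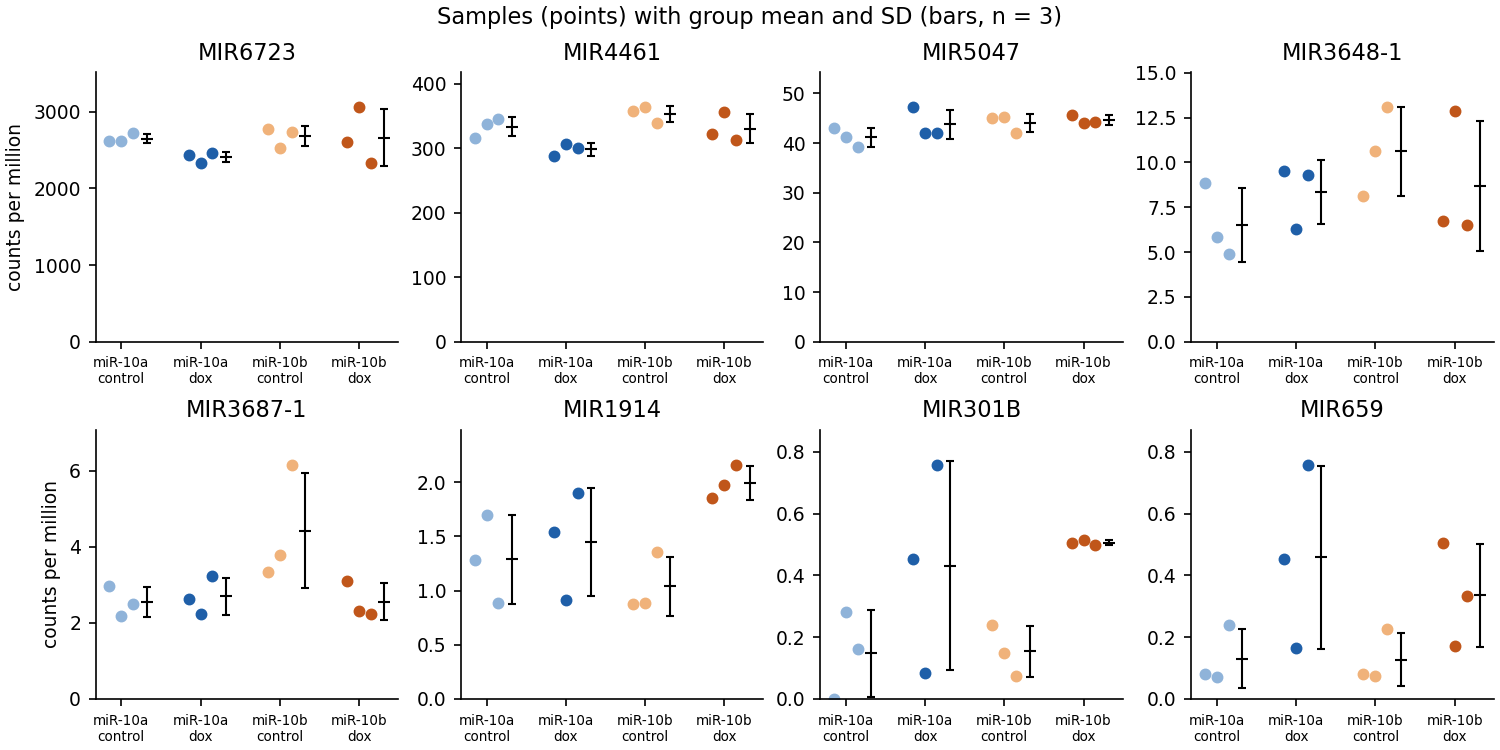
Level in CPM in each sample (points) with the group mean and SD (black bars, n = 3) for 8 precursor genes, each on its own axis from 0. MIR4461 is lower in all 3 miR-10a doxycycline samples than in their controls, 1 high miR-10b doxycycline sample stands out for MIR6723 and MIR3648-1, and 1 high miR-10b control stands out for MIR3687-1.

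Of the next most abundant precursors, 4 are described here and others below with their families. MIR4712 had 47 to 67 reads over the 12 samples, MIR186, in an intron of the RNA-binding protein gene ZRANB2, had 26 to 54, MIR4523 had 21 to 44 and MIR3916 had 19 to 37. The lowest and the highest sample of MIR186 were both miR-10a controls, so its spread within a group was as wide as that over all 12. MIR186 was at 0.26 with miR-10a (SE 0.20, adjusted p = 0.73) and -0.01 with miR-10b (SE 0.20, adjusted p = 0.986) on the log2 scale, and MIR4523 at 0.11 (adjusted p = 0.922) and 0.30 (adjusted p = 0.446). None of these 4 was called in any comparison.

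Of the precursor families known from stem cells and neural tissue, most genes were below the threshold in these libraries and a few were above it. The let-7 family, whose mature forms accumulate as cells differentiate, had 3 of its 12 precursors detected, with a mean of 11 reads for MIRLET7D, 6 for MIRLET7F1 and 5.67 for MIRLET7I. The summed let-7 level was 1.74 to 1.99 CPM in miR-10a doxycycline samples, 2.16 to 2.4 in miR-10a controls, 1.77 to 2.23 in miR-10b doxycycline samples and 1.85 to 2.22 in miR-10b controls. The miR-10a groups did not overlap in this sum, but none of the 3 genes passed the test in any comparison. For MIRLET7D the log2 fold change was -0.33 with miR-10a (SE 0.36, adjusted p = 0.837) and -0.02 with miR-10b (SE 0.35, adjusted p = 0.982).

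The miR-302 cluster, typical of pluripotent cells, had all 5 precursors below the threshold with means of 1.25 to 2 reads, and the miR-371 and miR-17-92 clusters had no read on any of their 4 and 6 precursors. MIR363 (6.08 reads) was the detected member of the related miR-106a-363 cluster on the X chromosome. In the miR-106b-25 cluster, inside an intron of the replication helicase gene MCM7, MIR25 had 30.8 reads and MIR106B 5.5, while MIR93, between them, was below the threshold at 2.33. Per kb, MIR25 was at 29.8 and MIR106B at 5.44 CPM, with 349 bases between them. None of MIR363, MIR25 and MIR106B was called in any comparison.

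Of 22 precursors listed for neural tissue, such as those of miR-9, miR-124 and miR-128, 20 were in the files and 2 were detected. MIR219A1, of a microRNA known from oligodendrocytes, had 33 to 65 reads per sample, and MIR7-1, in the HNRNPK gene, had 10 to 19. The reads of MIR219A1 were counted over 660 bases, against 110 for its hairpin, which lies opposite to an exon of an unnamed long non-coding RNA. Of 17 precursors that the study names for sorted progenitors of other samples, 15 were in the files and 2 were detected, MIR130B and MIR92B (9 reads). None of these 4 was called in any comparison, with log2 fold changes between -0.33 and 0.32 in the 2 doxycycline comparisons.

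The mRNAs of proteins that make and use microRNAs were measured far better than the precursors. Of 22 tested genes of the processing and silencing list, 1 passed the test with miR-10a and 5 with miR-10b, 2 higher and 3 lower, where 0.985% and 12.2% of all genes were called. LIN28A, the RNA-binding protein that blocks let-7 maturation, was the gene called with both vectors. Its level was 1385, 1428 and 1371 CPM in miR-10a doxycycline samples and 1543, 1503 and 1572 in their controls. It was 905, 907 and 884 CPM in miR-10b doxycycline samples and 1149, 1132 and 1124 in their controls. Every doxycycline sample was below every control of its vector.

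LIN28A fell by 0.14 on the log2 scale with miR-10a (SE 0.03, adjusted p = 0.0028) and by 0.34 with miR-10b (SE 0.03, adjusted p = 1.4e-11), and the difference of -0.19 between the 2 effects passed the test (SE 0.04, adjusted p = 0.00389). Without replicate 3 of the miR-10a controls, the miR-10a call was just lost (adjusted p = 0.0517). LIN28B, its paralogue, was at -0.09 with miR-10b (SE 0.03, adjusted p = 0.0471) and -0.03 with miR-10a (adjusted p = 0.81). AGO1, an Argonaute, was at 0.09 with miR-10b (adjusted p = 0.0426), and TNRC6A, which links Argonaute to mRNA decay, also at 0.09 (adjusted p = 0.0492).

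These 3 small miR-10b effects lost their call under several alternatives, in 11 of 12 cases of leaving out 1 sample for both LIN28B and TNRC6A. HNRNPA1, which binds some precursors, fell by 0.19 with miR-10b (adjusted p = 0.0139) and lost this call without replicate 1 of the doxycycline group (adjusted p = 0.0812). Averaged over both vectors, HNRNPA1 was at -0.15. It kept that call without each of the 12 samples (adjusted p of 0.00164 to 0.0246 in edgeR) and under all 6 other alternatives. The averaged AGO1 value was 0.08 (adjusted p = 0.0147). Its call was lost without replicate 3 of the miR-10a controls (adjusted p = 0.058) and with TMM scaling. TARBP2, the DICER1 partner, was at 0.42 averaged over both vectors (adjusted p = 0.033), at 2.44 to 5.3 CPM per sample, a call that was lost with DESeq2 and in 7 of 12 cases of leaving out 1 sample (adjusted p up to 0.165).

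The place of a hairpin in other genes bore on what its reads could be. Of the 83 members placed on hg19, 39 lay in an exon and 35 in an intron of a gene on the same strand, 5 were opposite to a gene and 4 had no gene around them. The exon class takes an exon of any annotated transcript of the gene, also of transcripts that keep an intron. It need not be an exon of the transcript whose reads were counted, which was not tested. All 70 hairpins that were matched by sequence occurred at exactly 1 place of the primary assembly. This covers whole hairpins without a mismatch, so near copies that could share reads were not searched. MIR6723, MIR4461, MIR3648-1 and MIR3687-1 had no hairpin to match and are not among the 70. For 37 of the members other than MIR10A and MIR10B, the gene around them was held in the files with a single transcript, and its level can be set beside that of the precursor per kb.

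**Figure D5:**
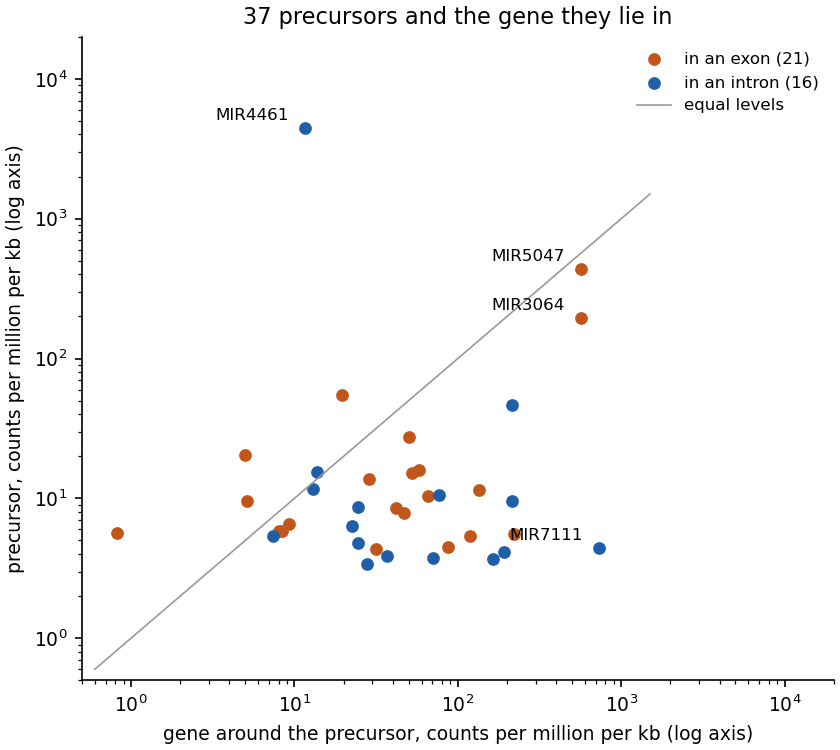
Mean level of 37 precursors (y axis) against that of the gene they lie in (x axis), both in CPM per kb on log axes, with a line of equal levels and colours for hairpins in exons and introns. Most precursors lie below the line, MIR4461 lies far above it, and the cloud shows no slope (Spearman's rho -0.03).

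Of these 37 precursors, 31 had a lower level per kb than their gene and 6 a higher one. Across the pairs, Spearman's rho between the levels per kb of precursor and gene was -0.03, over 35 genes that share libraries and depth with their precursors. In the exon class the precursor was at a median of 34.3% of the level of its gene, from 2.54% to 695% (21 pairs), and in the intron class at a median of 16.6% (16 pairs). How reads that lie on both a precursor and its gene were counted was not tested, so the classes are described only. These shares are bounded from below by the minimum of 3 reads, since precursors under it were not kept. The same minimum cuts the range behind rho and behind the counts of 31 and 6. They describe the kept precursors and cannot show whether precursor and gene levels are related.

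The most abundant precursors of the exon class among these lay in DDX5, an RNA helicase that itself assists the Microprocessor. MIR5047 (chr17:62497332-62497431) and MIR3064 (chr17:62496892-62496957), 374 bases apart, were at 434 and 195 CPM per kb, or 76.5% and 34.3% of the 568 CPM per kb of DDX5. Neither passed the test in any comparison. The log2 fold change of MIR5047 was 0.09 with miR-10a (SE 0.06, adjusted p = 0.682) and 0.02 with miR-10b (SE 0.06, adjusted p = 0.904), and that of DDX5 was 0.03 and -0.02. These are the best measured precursors outside the 4 most abundant ones.

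Of the 35 single-transcript genes around the 37 precursors, 1 was called with miR-10a, 4 with miR-10b and 5 in the average. Over all genes tested, 0.985%, 12.2% and 10.9% were called. RMST, GABPB1-AS1, SFRP1 (around MIR548AO) and TMEM179B (around MIR6748, average only) were called, and the precursor inside each was not. For PCBD2 and MIR4461, above, both were called as lower in the average over both vectors. RMST, a long non-coding RNA of neural progenitors, fell by 0.25 with miR-10a (adjusted p = 0.0124) and by 0.21 with miR-10b (adjusted p = 0.00516). MIR135A2 in its intron, which was kept through its controls (mean 6 reads, against 2.67 with doxycycline), had 3, 2 and 1 reads with doxycycline and 3, 10 and 7 without it in miR-10a cells, and 3, 3 and 4 against 5, 5 and 6 in miR-10b cells. Its log2 fold changes of -1.47 (SE 0.65, adjusted p = 0.336) and -0.51 (SE 0.57, adjusted p = 0.637) did not pass the threshold. GABPB1-AS1, with MIR4712 in an exon, rose by 0.25 with miR-10b (adjusted p = 0.00024), and MIR4712 was at 0.14 with no call.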

How the data were processed

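The RNA-seq libraries came from 12 samples in 4 groups of 3, grouped by their labels. The methods name the RNeasy and NuGEN Ovation kits with poly-A enrichment, while the labels name miRNeasy and Illumina kits. The authors mapped 50-base single-end reads to hg19 and deposited raw counts per RefSeq transcript without normalization, 1 file per sample. The submitters' processing notes name STAR, featureCounts and Subread; their versions and settings are not given in the sources used here. Each file had 51799 rows for 48101 transcripts, and 3698 repeated rows were dropped. Reads shared by several transcripts of a gene appear not to be counted, since genes with 1 transcript held 92.8% of the counts; no precursor gene had more than 1 transcript. Where a gene had several, the one with the highest mean was used.

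The members and all lists of genes were chosen with earlier results of these data known. Counts of the 14116 genes with a mean of 3 or more were tested with edgeR 4.0.16 (glmQLFit and glmQLFTest, R 4.3.3) in 1 fit of all 12 samples, with total counts as library sizes and Benjamini-Hochberg adjustment over all genes at 0.05. The 5 comparisons were doxycycline against control for each vector, their average, their difference, and the controls of the 2 vectors. Standard errors are Wald errors of that fit. The code was tested on simulated counts. Named members were MIR10A, MIR10B, those called in any comparison and the 15 with the highest mean CPM. Detected members of the lists, the genes around them, and those next to the threshold were also named. Others were named after their values were seen (MIR647, MIR135A2, MIR3153, MIR6739, MIR548AO, MIR6748 and the genes around them, the MTRNR2L genes and RNA45S5). Hairpins were located by exact match of the RefSeq hairpin to GRCh37, or, for 13, by GENCODE gene name on that build; 10 members were not placed. Alternatives were TMM scaling, DESeq2 1.42.0, a mean count above 10, no filter, fits of only the samples compared, counts summed over transcripts, the replicate number as a block, and leaving out each sample.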

Additional observations from a re-analysis of the deposited data

Results flagged for a closer look

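The doxycycline effects on MIR10A and MIR10B differed between the 2 vectors by the test of the difference itself. The effect with miR-10b minus that with miR-10a was -9.36 on the log2 scale for MIR10A (standard error, SE, 1.43, adjusted p = 0.00743) and 10.14 for MIR10B (SE 0.44, adjusted p = 1.4e-16, edgeR's quasi-likelihood test). Each vector carries 1 of these genes, so a difference of this direction is set by the design. The MIR10A value rests on miR-10b samples with 0 to 2 reads each and was not called without replicate 1 or replicate 3 of the miR-10b controls (adjusted p up to 0.142).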

How the results depend on the processing

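The counts of members called were 2, 3, 5, 2 and 4 for miR-10a, miR-10b, their average, their difference and the uninduced comparison. Over the fits with 1 sample left out these ran from 1 to 3, 2 to 6, 3 to 6, 1 to 3 and 2 to 5, with 6 of miR-10b reached without replicate 2 of its doxycycline group. The averaged count was 3 with DESeq2 and 3 with a mean count above 10. Over all genes, 139 (miR-10a) and 222 (difference) calls became 266 with only the samples compared and 343 with no filter, and ran from 76 to 263 and from 133 to 316 with 1 sample left out. The miR-10a count was 76 without its doxycycline replicate 1, 85 and 87 without its control replicates 1 and 3, and 263 without miR-10b doxycycline replicate 2. The difference gave 145 without miR-10a doxycycline replicate 1, 133 without miR-10a control replicate 2 and 140 without miR-10b control replicate 3. The replicate numbers did not pair the samples (correlations of deviations between -0.073 and 0.0142), and with the number as a block 2, 3, 5, 2 and 4 members were called, as without it, and 160, 1827, 1619, 277 and 1644 genes.

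Reversed signs appeared only in values that had not been called. The MIR6723 effect with miR-10b (-0.01) became 0.00505 and 0.0774 without doxycycline replicates 1 and 3, and 0.0158 and 0.00475 without control replicates 1 and 3, within a range of -0.12 to 0.08 over the samples left out. With miR-10a, MIR1914 (0.13) became -0.10 and -0.07 without doxycycline or control replicate 3 (range -0.10 to 0.39), and MIR3687-1 (0.08) became -0.0646 and -0.03 without doxycycline replicate 3 or control replicate 2 (range -0.06 to 0.20). DESeq2 did not call MIR1914 or MIR3687-1 with miR-10b, nor MIR3648-1 in uninduced cells, and it called MIR4461 with miR-10b, as TMM scaling did. A minimum of 10 reads would have left 38 members. Summing over transcripts left 93. Depth limits nearly all members: 55 had a mean below 10 reads. The cause of these shifts was not tested.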
